A study of Mus musculus with 8 samples.

Results

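The arrays compared here hold RNA of mouse cerebral cortex treated with fibroblast growth factor-2 (FGF2) together with 1 of 2 kinase inhibitors, and they ask how blocking MEK differs from blocking p38 while FGF2 is present. They were chosen by their descriptions in the labels: 2 arrays of FGF2 with U0126 and 2 of FGF2 with SB202190, which are 4 of the 8 arrays of the series. The other 4 arrays, 2 of vehicle without FGF2 or inhibitor and 2 of FGF2 alone, show on which side a difference lies. The series' title names astroglia, while strain, age, doses and times, and whether the RNA came from cultured cells or from tissue, are not stated in the labels. An inhibitor without FGF2 was not analysed here, and both inhibitor groups carry the growth factor. The label of FGF2 with SB202190 replicate 2 named acclimatization as the type of treatment where the other labels had wait, and the array was kept in its group. The labels do not say whether the replicates of a group are separate cultures or animals. The p-values therefore rest on the spread between these arrays alone, and that spread may be technical.

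FGF2 binds FGF receptors and activates, through Ras and Raf, the kinases MEK and then ERK, which phosphorylate transcription factors and turn on early genes and, with them, inhibitors that feed back on the cascade. U0126 inhibits MEK, the step that activates ERK. SB202190 inhibits the p38 kinases, a separate branch that answers stress and cytokines and acts through MAPKAP kinases on the stability and translation of mRNAs. In astrocytes, FGF2 is known as a mitogen that lowers genes of the mature, quiescent state.

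Signals are the deposited values, 1 per array, on a linear scale. A difference is the log2 signal with U0126 minus that with SB202190, so a positive value is higher with U0126, and it is given ± SE from limma over all 8 arrays. A gene was called where limma's p, adjusted by Benjamini and Hochberg over the 13173 genes tested, was under 0.05. All 10 astrocyte markers were above the filter on low signals, with a summed signal of 16568.8 and 16864.3 on the U0126 arrays and of 13106.0 and 13289.6 on the SB202190 arrays. Of the 12 microglia markers 7 were below the filter, as were 6 of 12 neuronal, 5 of 9 endothelial and 5 of 9 oligodendrocyte markers, none of them with a signal above 37.7 on any array. Above it were 10 of 12 fibroblast and pericyte, 9 of 11 ependymal and choroid plexus and 5 of 6 oligodendrocyte precursor markers. The fibroblast and pericyte markers summed to 6457.8 and 6537.6 with U0126 and to 5806.0 and 6650.1 with SB202190. Replicates correlated with r of 0.9803 for U0126 and 0.9838 for SB202190 across the genes tested, and arrays of different inhibitors with r of 0.9656 to 0.9678, where genes are not independent replicates. For Actb, whose control probe sets at the 3' and 5' ends give a sign of RNA quality, the 3' over 5' signal was 1.26 and 1.28 with U0126 and 1.40 and 1.41 with SB202190, so these groups did not overlap, while the ratio for Gapdh was 0.745 and 0.758 against 0.697 and 0.753. The part of RNA quality in the differences was not tested.

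The inhibitors left different transcriptomes. Of 13173 genes 2989 were called, which is 22.7%. In all called genes both arrays of 1 inhibitor lay above both of the other, as they did in 7894 of the 13173 genes tested. With U0126 1633 genes were higher, 12.4% of those tested, and 1356 were lower, 10.3%, a split that turned to 1356 higher and 1593 lower when the arrays were centred on the kept genes. The difference was at least 2-fold for 204 of the higher and 171 of the lower genes, and the median over all genes was 0.02. Against FGF2 alone, 2920 genes were called with U0126, 22.2%, and 398 with SB202190, 3.02%, in comparisons that share the FGF2 arrays. The first count was 1852 without FGF2 replicate 1 and 1786 without FGF2 replicate 2. The second was 83 and 86 without these arrays, 98 without FGF2 with SB202190 replicate 2, and 0 in limma without an intensity trend, where 1820 genes had an unadjusted p under 0.05. With 1 probe set replaced by all that passed the filter, 4513 of 27024 probe sets were called, among them 350 of the 3113 that had no single gene symbol. Leaving out FGF2 with SB202190 replicate 2 lowered the count of called genes to 1802, 999 higher and 803 lower. Leaving out FGF2 with U0126 replicate 2 left 1028 genes higher. Averaging all probe sets of a gene in place of the brightest gave 1784 called genes. Among the genes described below it ended the calls of Esco2, Bbox1, Nkd1, Spred1, Spred2, Etv5, Braf, Map3k5, Mcm5, Mcm6, Btg1, Cdkn1b, Cyp1b1, Aldoc, Acta2, Pdgfra and Hsd17b7. It also ended those of Araf, Hspb1, Ppm1d and Col1a2. A fit without a trend of the variance with intensity gave 1729 called genes and ended the calls of 2210409E12Rik, Hdc, Dusp5, Ier3, Etv5, Ccl2, Zfp36l2, Kif23, Ccnd2, Trib3 and Cd68. The calls of Map2k4, Hspb1, Ppm1d, Tab2, Esam, Olig1, Col1a1 and Col1a2 ended there too.

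Genes that FGF2 had raised tended to be lower with U0126 than with SB202190, and genes it had lowered tended to be higher. FGF2 against vehicle, measured on the 4 arrays that the inhibitor comparison does not use, called 4993 genes, 37.9%. It raised 18.9% of all genes and lowered 19%, the shares to set beside the counts for FGF2 in the gene lists below. Of the 2489 raised genes 657 were lower with U0126 (26.4%, beside 10.3% of all genes) and 222 were higher (8.92%, beside 12.4%), with a median difference of -0.11. Among the 2504 lowered genes 796 were higher (31.8%) and 159 were lower (6.35%), with a median of 0.18. The 8180 genes without a call for FGF2 had 615 higher, 540 lower and a median of 0.02. Among genes that FGF2 changed at least 2-fold, 168 of the 432 raised genes were lower (38.9%, median -0.45) and 221 of the 570 lowered genes were higher (38.8%, median 0.46). Normalization and the estimate of spread were shared by both comparisons, their arrays were not. In RNA from bulk samples, fewer cells of a type and less RNA per cell cannot be told apart.

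**Figure D1:**
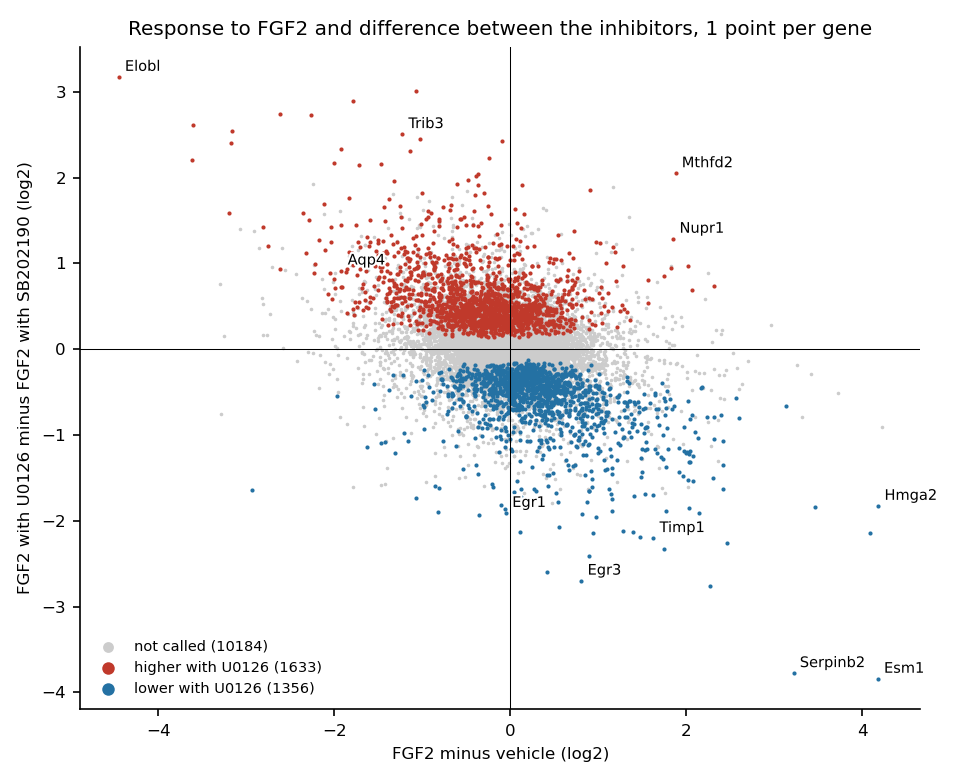
Each point is 1 of the 13173 genes tested, with the log2 response to FGF2 (FGF2 minus vehicle) on the x axis and the log2 difference between the inhibitors (FGF2 with U0126 minus FGF2 with SB202190) on the y axis. Red points (1633 genes) were called higher and blue points (1356) lower with U0126, and Esm1 and Serpinb2 lie at the lower right, where genes raised by FGF2 were lower with U0126.

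Esm1 and Serpinb2, both on the list of ERK-induced secreted and surface proteins, had the largest decreases with U0126. Esm1, a proteoglycan secreted by activated endothelium and other cells, had signals of 156.3 and 187.6 with U0126 and 2307.2 and 2749.1 with SB202190, beside 2026.9 and 1975.1 with FGF2 and 104.0 and 116.7 with vehicle. The U0126 arrays stood near vehicle and the SB202190 arrays above FGF2, the latter with no call (adjusted p 0.131), with a difference of -3.84 ± 0.11, 14.4-fold lower with U0126 (adjusted p 2.07e-10). Serpinb2, which inhibits plasminogen activators, gave 27.7 and 23.9 with U0126 against 413.1 and 366.6 with SB202190, after 254.4 and 239.4 with FGF2 and 25.3 and 31.5 with vehicle. Its U0126 arrays lay within the range of the vehicle arrays or just below it, and the difference was -3.78 ± 0.17 (adjusted p 1.95e-08). Timp1, an inhibitor of matrix metalloproteinases, fell on the U0126 arrays to 648.7 and 744.5, below vehicle (935.9 and 1041.0), and stood at 3507.1 and 3072.6 with SB202190, near FGF2 (3094.0 and 3252.1), a difference of -2.20 ± 0.08 (adjusted p 2.04e-09).

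Promoters of the called list members with the largest differences are shown to place these genes in their sequence, from RefSeq on GRCm38.p6 and in the direction of the gene, from 250 bases before to 30 after the start. Capitals mark matches on either strand to the letters searched for the member's list. For Esm1 and Serpinb2 these were TGANTCA, where N is any base, a loose form of the AP-1 site TGAGTCA or TGACTCA. AP-1 is the dimer of Fos and Jun proteins.
Esm1 (chr13:113209409-113209688, plus strand): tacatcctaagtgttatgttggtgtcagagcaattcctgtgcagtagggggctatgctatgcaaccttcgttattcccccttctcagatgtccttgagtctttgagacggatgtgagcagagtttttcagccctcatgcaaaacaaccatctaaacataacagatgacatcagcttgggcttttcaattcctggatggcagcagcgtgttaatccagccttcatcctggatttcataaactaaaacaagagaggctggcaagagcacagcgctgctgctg
Serpinb2 (chr1:107511173-107511452, plus strand): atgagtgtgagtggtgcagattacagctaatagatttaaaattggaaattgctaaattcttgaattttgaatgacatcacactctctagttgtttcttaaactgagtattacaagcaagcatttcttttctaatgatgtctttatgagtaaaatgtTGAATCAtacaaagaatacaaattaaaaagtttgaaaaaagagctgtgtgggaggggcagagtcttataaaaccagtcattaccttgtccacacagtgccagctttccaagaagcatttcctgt
Serpinb2 has 1 match, with A at N and so only of the loose form, whose first base is at -94. Esm1 has 0 in this window. Over 300 bases, 50 of them after the start, 7 of the 13 promoters found for the list of ERK-induced secreted and surface proteins held a match (53.8%), beside 9.0% of 27025 genes. Of the 8 called members with a promoter 3 held one, and of the 5 not called 4 did. The other 2 called members with a match are Mmp3 and Emp1, shown with 10 bases on each side and with G at N.
Mmp3 (chr9:7445766-7445792, plus strand): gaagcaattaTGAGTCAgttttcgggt
Emp1 (chr6:135362776-135362802, plus strand): tctgtgtgtcTGAGTCAgagggagcta

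In the whole list of ERK-induced secreted and surface proteins, 12 of the 18 members tested were lower with U0126 (66.7%, beside 10.3% of all genes) and 0 were higher, with a median difference of -0.64. FGF2 had raised 17 of the 18 and lowered 0. Against FGF2, 13 were lower with U0126 and 0 with SB202190, beside 10.5% and 1.7% of all genes. Plat, the tissue plasminogen activator, had signals of 1658.2 and 1658.1 with U0126, 4141.5 and 4547.3 with SB202190 and 3082.6 and 3259.0 with FGF2. It stood below FGF2 with 1 inhibitor (-0.89 ± 0.06) and above it with the other (0.46 ± 0.06), which gave a difference of -1.35 ± 0.06 (adjusted p 2.13e-08). Mmp3, a secreted metalloproteinase, followed the same order, with 526.9 and 559.4, 936.2 and 1025.3 and 1233.9 and 1338.2 for U0126, FGF2 and SB202190. Its difference of -1.24 ± 0.07 (adjusted p 2.07e-07) again parted around FGF2, by -0.85 ± 0.07 and 0.38 ± 0.07. Emp1, a membrane protein of the epithelial membrane protein family, had 837.1 and 983.3 with U0126 and 2020.7 and 2146.2 with SB202190, a difference of -1.18 ± 0.11 (adjusted p 6.07e-06).

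The remaining genes with the largest decreases were of many kinds. Angptl4, a secreted inhibitor of lipoprotein lipase, had 41.5 and 38.6 with U0126 and 277.7 and 239.9 with SB202190, beside 187.1 and 224.1 with FGF2 and 151.8 and 161.5 with vehicle. Its U0126 arrays were the lowest of all 8, with a difference of -2.60 ± 0.14 (adjusted p 9.12e-08). Prkg2, a protein kinase activated by cyclic GMP, gave 39.5 and 48.0 against 221.0 and 218.7, and vehicle gave 44.0 and 36.7, so the U0126 arrays were near vehicle and the SB202190 arrays near FGF2 (207.2 and 211.2). The difference was -2.26 ± 0.16 (adjusted p 1.11e-06). Il33, a nuclear cytokine of the interleukin-1 family, stood at 137.1 and 226.5 with U0126, below vehicle (331.3 and 306.8), and at 770.5 and 795.1 with SB202190, a difference of -2.14 ± 0.17 (adjusted p 1.72e-06). Sema7a, a membrane-anchored semaphorin, differed by -2.19 ± 0.22, with 28.0 and 41.9 against 157.8 and 173.2. Another group of named genes had U0126 signals at or below 17, where the size of the difference was uncertain, and its range over the alternatives is given: Adgrl4 (-3.60 to -1.41), an adhesion receptor, Kif23 (-3.37 to -1.38), Stra6 (-2.70 to -1.17), a receptor for retinol uptake, Esco2 (-2.21 to -1.32), an enzyme of sister chromatid cohesion, and 2310067E19Rik (-2.51 to -1.12). Csn3 (-2.56 to -1.41) and S100a3 (-2.84 to -1.03), also with low signals, lost their call without FGF2 with SB202190 replicate 1.

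**Figure D2:**
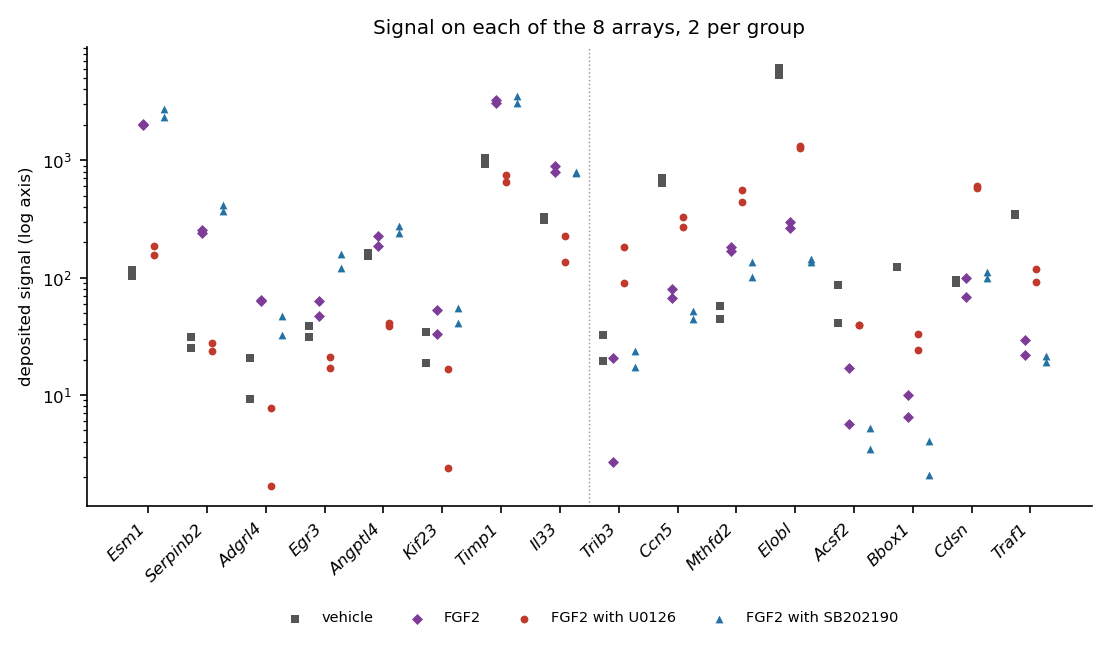
Deposited signal on each of the 8 arrays (log axis) for 8 genes lower with U0126, left of the dotted line, and 8 genes higher with it, with squares for vehicle, diamonds for FGF2, circles for FGF2 with U0126 and triangles for FGF2 with SB202190. For Esm1 the circles lie at 156.3 and 187.6 and the triangles at 2307.2 and 2749.1, and for Elobl the order is turned, with circles at 1261.4 and 1320.6 and triangles at 143.2 and 136.0.

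At the other end stood Elobl, with 1261.4 and 1320.6 on the U0126 arrays and 143.2 and 136.0 on the SB202190 arrays. FGF2 alone had lowered it to 300.1 and 266.7 from 5348.1 and 6100.5 with vehicle. The inhibitors parted it to both sides of FGF2, higher by 2.17 ± 0.08 with U0126 (adjusted p 2.40e-09) and lower with SB202190 (adjusted p 2.78e-05), and the difference between them was 3.17 ± 0.08, 9.02-fold (adjusted p 7.35e-11). C530044C16Rik showed the same order, with 489.8 and 407.4 against 53.2 and 52.6 and 117.3 and 111.8 with FGF2, a difference of 3.01 ± 0.13 (adjusted p 1.52e-08). For both the U0126 and the SB202190 arrays lay on opposite sides of the FGF2 arrays. Ccn5, a matricellular protein, had 329.8 and 270.5 with U0126 and 52.1 and 44.3 with SB202190 after a fall from 633.9 and 705.6 with vehicle to 79.5 and 66.9 with FGF2, and differed by 2.55 ± 0.14 (adjusted p 1.14e-07). Cdsn, an adhesion protein of the epidermis, was high on the U0126 arrays alone, at 602.4 and 579.4, against 100.2 and 111.1 with SB202190, 99.4 and 68.1 with FGF2 and 95.2 and 89.8 with vehicle, a difference of 2.43 ± 0.16 (adjusted p 3.22e-07).

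The other highest genes had lower signals. Acox2, a peroxisomal oxidase of branched fatty acids and bile acid intermediates, had 106.0 and 125.0 with U0126 and 11.1 and 15.4 with SB202190, a difference of 2.89 ± 0.26 (adjusted p 5.21e-06). Its U0126 arrays were at or above vehicle (78.9 and 101.8) and its SB202190 arrays below FGF2 (22.3 and 23.5), the latter with no call (adjusted p 0.183). Acsf2, an acyl-CoA synthetase, and Bbox1, the last enzyme of carnitine synthesis, had SB202190 signals of 2.1 to 5.2, below the filter, so that the size of their differences was uncertain, from 1.45 to 3.00 and from 1.23 to 2.98 over the alternatives. Traf1, an adaptor of tumour necrosis factor receptors, stood at 91.4 and 118.5 against 21.7 and 19.3, far under vehicle (347.1 and 343.2) in both, and differed by 2.20 ± 0.21 (adjusted p 8.58e-06). The same limit held for Paqr6, a membrane receptor for progestins (1.40 to 3.48), 1700016K19Rik (1.55 to 3.20) and 2210409E12Rik (1.11 to 3.51), with SB202190 signals of 0.9 to 17.1. Nkd1, an inhibitor of Wnt signalling (0.05 to 2.66), Hdc, which makes histamine (1.25 to 3.27), and Map3k9, a mixed-lineage kinase (1.01 to 2.83), had SB202190 signals of 1.9 to 13.0 and lost their calls when an inhibitor array was left out: Nkd1 and Hdc without FGF2 with U0126 replicate 1, Nkd1 also without its replicate 2, and Map3k9 without FGF2 with SB202190 replicate 2.

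Feedback inhibitors of the ERK cascade were lower with U0126 in part. Of the 18 tested 7 were lower (38.9%, beside 10.3% of all genes), 0 were higher and the median difference was -0.50, while FGF2 had raised 14 of them and lowered 1. Errfi1, an inhibitor of EGF receptors, had 204.4 and 207.5 with U0126, 477.9 and 475.7 with SB202190, 412.6 and 439.7 with FGF2 and 209.1 and 220.2 with vehicle. The U0126 arrays were just below vehicle and the SB202190 arrays above FGF2, the latter with no call (adjusted p 0.406), a difference of -1.20 ± 0.09 (adjusted p 1.33e-06). Dusp6, the phosphatase of ERK in the cytoplasm, went from 258.4 and 257.6 with vehicle to 1173.9 and 1276.2 with FGF2 and stood at 906.7 and 920.6 with U0126 and 1498.3 and 1691.0 with SB202190. Both U0126 arrays were far above vehicle, and the difference was -0.79 ± 0.07 (adjusted p 7.20e-06). Spry1, a Sprouty inhibitor of receptor signalling, differed by -0.54 ± 0.11 with 175.1 and 175.1 against 252.4 and 252.2, and Rasa1, which switches Ras off, by -0.55 ± 0.08 with 510.6 and 470.3 against 690.1 and 756.1. The Spred proteins, which hold back Raf, gave -0.60 ± 0.10 for Spred1 and -0.60 ± 0.07 for Spred2, and Spred2 changed sign to 0.18 when all probe sets of the gene were averaged. Dusp5, the nuclear phosphatase of ERK, differed by -1.16 ± 0.26 and lost its call without FGF2 with U0126 replicate 1 or FGF2 with SB202190 replicate 1.

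The other members had no call between the inhibitors, with wide intervals for some. Spry4 stood at 114.1 and 98.5 against 111.3 and 149.5, -0.28 ± 0.21 (adjusted p 0.387), after FGF2 had raised it from 24.8 and 27.4 to 134.3 and 92.0. Spry2 gave 731.3 and 750.3 and 749.4 and 901.9, -0.15 ± 0.10 (adjusted p 0.296). For Dusp4, another nuclear phosphatase, the arrays did not overlap, at 162.5 and 140.6 against 210.3 and 204.4, and the difference of -0.46 ± 0.17 missed the threshold (adjusted p 0.0745). Il17rd, Lrig1, Dusp2 and Spred3 were measured between -0.76 and -0.04, and Dusp1, Lrig3, Dusp7 and Dusp8 between 0.10 and 0.84, all without a call.

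Transcription factors listed as induced by ERK differed the same way between the inhibitors where they were called. Of the 26 tested 11 were lower with U0126 (42.3%, beside 10.3% of all genes) and 0 were higher, with a median of -0.31. FGF2 had raised only 9 of the 26 and lowered 7, with a median of -0.02. Against FGF2, 9 were lower and 4 higher with U0126, beside 10.5% and 11.7% of all genes. With SB202190 1 was lower and 5 were higher, beside 1.7% and 1.32%. Egr3, a zinc finger factor of the early response, had 21.3 and 17.1 with U0126 and 120.6 and 159.6 with SB202190, with 63.8 and 47.6 for FGF2 between them. Each inhibitor differed from FGF2, by -1.41 ± 0.25 and 1.29 ± 0.25, and from the other by -2.70 ± 0.25 (adjusted p 6.43e-06). Egr1, its close relative, had no call for FGF2 (549.5 and 509.9 against 539.6 and 536.2 with vehicle, adjusted p 0.702) and stood at 201.3 and 204.9 with U0126 and 725.1 and 826.3 with SB202190. Its difference was -1.91 ± 0.09 (adjusted p 2.13e-08), and against FGF2 the inhibitors gave -1.37 ± 0.09 and 0.54 ± 0.09. Hmga2, a chromatin protein of growing progenitors, had been raised from 54.9 and 40.3 to 820.1 and 830.5 by FGF2 and gave 217.4 and 222.4 with U0126 and 786.7 and 790.9 with SB202190. Here the U0126 arrays lay between vehicle and FGF2 and the SB202190 arrays close to FGF2, a difference of -1.83 ± 0.12 (adjusted p 3.98e-07).

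Of the remaining 23 members 8 were called, with smaller differences, and 15 were not. Ier2 differed by -1.05 ± 0.14, with 107.3 and 96.6 against 193.2 and 235.8, and Klf10, a repressor also induced by TGF-beta, by -0.95 ± 0.13, with 105.7 and 121.6 against 229.4 and 212.9. Junb differed by -0.75 ± 0.17 and Jun, of the same family, by -0.62 ± 0.09, with 1085.5 and 1373.7 against 2006.9 and 1812.3. Ier3 was above FGF2 (735.5 and 791.3) with both inhibitors, at 1275.2 and 1335.1 with U0126 and 1668.1 and 1857.2 with SB202190, and the difference between them was -0.41 ± 0.08 (adjusted p 0.00233). Fos, the partner of Jun proteins in AP-1, gave 383.6 and 470.5 and 370.7 and 471.0, both below FGF2 (627.5 and 627.0), and 0.02 ± 0.11 between the inhibitors (adjusted p 0.943). Fosl1 stood at 513.9 and 337.2 and 492.5 and 453.8, all far above vehicle (39.5 and 37.9), with a difference of -0.18 ± 0.16 (adjusted p 0.448). Of the ETS factors that FGF signalling induces, Etv5 differed by -0.32 ± 0.08, a call lost without either second inhibitor array, and Etv4 by -0.28 ± 0.47 (adjusted p 0.724). Of the 19 promoters found for this list 0 held TGANTCA.

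**Figure D3:**
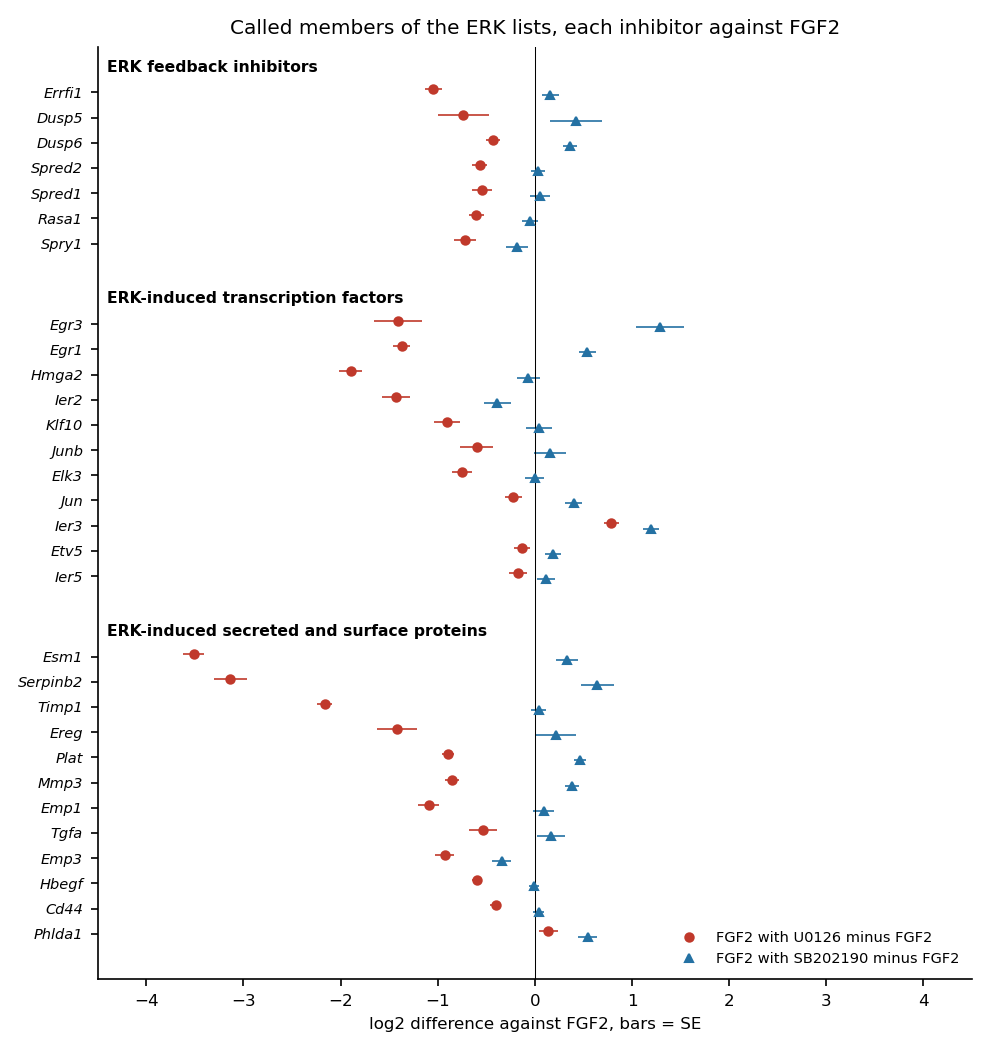
Log2 difference of each inhibitor group against FGF2 (x axis, bars are the SE) for the called members of the 3 ERK lists, with red circles for U0126 and blue triangles for SB202190. Most circles lie left of 0 and most triangles near or right of it, with Ier3 right of 0 for both. The comparisons share the FGF2 arrays.

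Of 20 kinases, adaptors and receptors of the ERK cascade 6 were higher and 2 lower with U0126 (30% and 10%, beside 12.4% and 10.3% of all genes), with a median of 0.07. Among the higher calls, that of Araf, a Raf kinase, was lost without FGF2 with U0126 replicate 2 or FGF2 with SB202190 replicate 2, and its difference was -0.01 with averaged probe sets. Gab1, a docking protein of receptor kinases, had 466.3 and 477.1 against 257.8 and 285.3 and 963.1 and 840.1 with vehicle, a difference of 0.78 ± 0.09 (adjusted p 5.42e-05). Fgfr3, an FGF receptor of astrocytes, gave 498.2 and 469.3 against 322.7 and 366.5, so the U0126 arrays were at the level of vehicle (499.8 and 486.8), a difference of 0.48 ± 0.09 (adjusted p 0.00184). Braf, a kinase upstream of MEK, differed by 0.49 ± 0.10.

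Of 26 members of the p38 cascade, the target of SB202190, 1 was higher and 5 were lower with U0126, 3.8% and 19.2% beside 12.4% and 10.3% of all genes, with a median of -0.06. The calls of Map2k4, Hspb1, Ppm1d and, on the higher side, Tab2 were each lost when an inhibitor array was left out: Map2k4, Hspb1 and Tab2 without FGF2 with U0126 replicate 1 or FGF2 with SB202190 replicate 1, Hspb1 and Ppm1d without FGF2 with U0126 replicate 2, and Map2k4 and Ppm1d without FGF2 with SB202190 replicate 2. Gadd45a, a stress protein that activates MAP3 kinases of the p38 branch, was highest with SB202190, at 1333.9 and 1387.1, against 873.9 and 780.8 with U0126 and 712.9 and 679.1 with FGF2. Its difference was -0.72 ± 0.07 (adjusted p 1.88e-05). Map3k5, a kinase that answers oxidative stress, had low signals, none above 50.5 on these arrays, and a difference of -1.44 ± 0.31 (adjusted p 0.00432). For Mapk14 and Mapk11, the p38 kinases that SB202190 inhibits, the signals were 295.1 and 293.5 against 345.9 and 324.0 and 26.1 and 37.4 against 38.4 and 30.2, with differences of -0.20 ± 0.11 (adjusted p 0.199) and -0.12 ± 0.33 (adjusted p 0.839). Mapkapk2, the kinase they activate, had 142.4 and 178.9 against 156.8 and 158.5 (adjusted p 0.997).

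Among 18 mRNAs with AU-rich elements, whose decay p38 is known to slow, 3 were higher and 2 lower with U0126, with a median of 0.11, so the shares of 16.7% and 11.1% were near those of all genes. Ccl2, a chemokine for monocytes, stood at 52.1 and 91.5 against 145.4 and 181.2, a difference of -1.21 ± 0.27 that lost its call without FGF2 with U0126 replicate 1 or FGF2 with SB202190 replicate 2. Zfp36l2, a protein that itself binds such elements, differed by 0.43 ± 0.08 (adjusted p 0.00242). Ptgs2, Myc, Lif, Vegfa and Plaur had no call, with values between -0.30 and 0.31.

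Cell cycle genes that differed were nearly all lower with U0126. Of 35 genes of DNA replication 13 were lower (37.1%, beside 10.3% of all genes), 0 were higher and 22 were not called (median -0.36). FGF2 had raised 32 of the 35, beside 18.9% of all genes. Rrm2, a subunit of ribonucleotide reductase, had 312.7 and 328.5 with U0126, 858.4 and 948.0 with SB202190, 1055.1 and 1070.7 with FGF2 and 380.3 and 367.7 with vehicle. The U0126 arrays were under vehicle and the SB202190 arrays a little under FGF2, a difference of -1.49 ± 0.08 (adjusted p 5.30e-08). The helicase subunit Mcm6 was at vehicle with U0126 (333.0 and 329.2, vehicle 332.3 and 318.7) and at 647.2 and 565.2 with SB202190, a difference of -0.87 ± 0.10 (adjusted p 4.06e-05). Mcm7 gave 644.9 and 640.6 and 962.4 and 922.5 against 1167.8 and 1228.7 with FGF2, so both inhibitors lay below FGF2, with -0.91 ± 0.07 and -0.35 ± 0.07, and the difference between them was -0.56 ± 0.07. Against FGF2 22 of the 35 were lower with U0126 and 4 with SB202190, beside 10.5% and 1.7% of all genes.

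The letters TTTNNCGC, an E2F site, stood in 14 of the 31 promoters found for the replication list (45.2%), beside 5.9% of 27025 genes. Of the 12 called members with a promoter 9 held them, and of the 19 not called 5. First matches in 4 of the 6 Mcm helicase genes are shown with 10 bases on each side, chosen after their values were seen.
Mcm6 (chr1:128359798-128359825, minus strand): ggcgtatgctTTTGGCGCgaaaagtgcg
Mcm3 (chr1:20820276-20820303, minus strand): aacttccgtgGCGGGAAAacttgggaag
Mcm5 (chr8:75109346-75109373, plus strand): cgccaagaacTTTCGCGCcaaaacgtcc
Mcm7 (chr5:138172031-138172058, minus strand): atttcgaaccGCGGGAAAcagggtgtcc

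Mitosis genes followed. Of 32 tested 15 were lower (46.9%, beside 10.3% of all genes) and 16 were not called, with a median of -0.48. The spindle protein Tpx2 (0.64 ± 0.18, chosen after its value was seen) was the 1 that was higher. Bub1, a kinase of the spindle checkpoint, had 33.2 and 22.6 with U0126 and 65.8 and 79.9 with SB202190, after 107.5 and 84.1 with FGF2 and 28.0 and 22.1 with vehicle. The U0126 arrays were near vehicle, and the difference was -1.31 ± 0.25 (adjusted p 0.00224). Ccna2, the cyclin of S phase and mitosis, gave 61.3 and 63.1 against 153.8 and 123.9, a difference of -1.12 ± 0.16 (adjusted p 2.21e-04). Prc1, which bundles the central spindle, differed by -1.46 ± 0.23, a call lost without FGF2 replicate 1. Kif23, a kinesin of the same structure, had the largest difference of the list, with 16.8 and 2.4 against 41.0 and 55.1, and lost its call without either second inhibitor array. Its promoter is shown for the size of its difference, as those of Esm1 and Serpinb2 were. It holds both motifs searched for mitosis genes, the CHR element TTTGAA and the CCAAT box, the second on the opposite strand.
Kif23 (chr9:61946770-61947049, minus strand): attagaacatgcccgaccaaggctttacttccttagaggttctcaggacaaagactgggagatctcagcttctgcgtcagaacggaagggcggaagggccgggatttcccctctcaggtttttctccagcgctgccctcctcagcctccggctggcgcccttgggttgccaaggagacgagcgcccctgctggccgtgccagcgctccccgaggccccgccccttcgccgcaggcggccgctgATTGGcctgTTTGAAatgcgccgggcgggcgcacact
The first base of the CCAAT match is at -7 and that of TTTGAA at 3, counted from the start. Among 27 mitosis promoters 21 held TTTGAA (77.8%, beside 20.2% of all genes) and 22 held CCAAT (81.5%, beside 41.1%). Of the called members 9 of 12 held TTTGAA and 10 of 12 CCAAT, and of those not called 12 of 15 held each.

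G1 regulators were mixed, with 7 of 24 lower and 2 higher (29.2% and 8.3%, beside 10.3% and 12.4% of all genes) and a median of -0.07. Ccne2, a cyclin that starts S phase, differed by -1.20 ± 0.18, with 59.7 and 86.1 against 159.4 and 177.2 and 71.8 and 61.5 with vehicle. Also lower were genes that hold back the cycle: Btg1 with -0.81 ± 0.09 (461.8 and 454.2 against 741.3 and 872.9) and the CDK inhibitor Cdkn1b with -0.59 ± 0.09 (526.1 and 466.0 against 704.5 and 802.4). On the U0126 arrays both lay under all other arrays. Ccnd2, a D cyclin, differed by -0.21 ± 0.05. Of 25 genes of ribosome biogenesis 3 were higher and 1 lower (12% and 4%, beside 12.4% and 10.3% of all genes, median 0.08). FGF2 had raised 20 of the 25.

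Genes of the ATF4 stress response, the program of amino acid transport, tRNA charging and serine synthesis that follows phosphorylation of eIF2alpha, were higher with U0126. Of 27 tested 19 were higher and 0 lower, 70.4% beside 12.4% of all genes, with a median of 0.69. FGF2 had raised 19 of the 27 itself and lowered 2. Against FGF2, 16 were higher with U0126 and 0 lower, beside 11.7% and 10.5% of all genes. With SB202190 1 was higher and 2 lower, beside 1.32% and 1.7%. The medians were 0.44 with U0126 and -0.13 with SB202190. Mthfd2, the mitochondrial folate enzyme, rose from 57.6 and 44.1 with vehicle to 181.3 and 170.0 with FGF2 and 555.6 and 441.9 with U0126, and stood at 135.7 and 100.3 with SB202190. No group overlapped another, and the inhibitors differed by 2.05 ± 0.18 (adjusted p 3.61e-06). Atf5, a transcription factor of the response, had 1772.6 and 1636.3 against 924.5 and 830.4 and 1065.2 and 1018.8 with FGF2, a difference of 0.97 ± 0.07 (adjusted p 1.33e-06). Slc3a2, the heavy chain of amino acid exchangers, gave 3069.0 and 2971.7, 2002.5 and 1813.0 and 2313.2 and 2372.1 in the same order and lay on opposite sides of FGF2, a difference of 0.71 ± 0.07 (adjusted p 7.30e-06).

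Nupr1, a stress-induced chromatin protein, was called with SB202190 against FGF2 and not with U0126. It had 2005.6 and 1762.1 with U0126, 2365.0 and 2186.5 with FGF2, 849.8 and 717.3 with SB202190 and 607.5 and 593.0 with vehicle. The difference of 1.29 ± 0.09 (adjusted p 5.31e-07) went with -1.51 ± 0.09 against FGF2 for SB202190, where U0126 gave -0.22 ± 0.09 (adjusted p 0.0896). Trib3, a pseudokinase that ATF4 and CHOP induce, had 180.6 and 89.6 with U0126 against 23.6 and 17.2 with SB202190, a difference of 2.51 ± 0.60 with the widest SE of the list, and its call was lost without FGF2 with U0126 replicate 1 or FGF2 with SB202190 replicate 2.

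The C/EBP-ATF response element, searched as TGATGNAA, stood in 7 of the 22 ATF4 promoters found (31.8%), beside 4.5% of 27025 genes. All 7 were among the 16 called members with a promoter and 0 among the 6 not called. The promoter of Trib3 comes first, with its match in capitals at 15 after the start, on the opposite strand.
Trib3 (chr2:152344031-152344310, minus strand): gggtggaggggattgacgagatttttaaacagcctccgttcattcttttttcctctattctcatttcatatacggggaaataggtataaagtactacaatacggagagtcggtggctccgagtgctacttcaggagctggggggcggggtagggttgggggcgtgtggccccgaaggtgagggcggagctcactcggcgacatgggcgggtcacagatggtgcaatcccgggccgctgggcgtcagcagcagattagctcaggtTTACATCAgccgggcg
Windows of 10 bases around the first match in 5 more of these genes, chosen after their values were seen, show the bases that the N in the motif took.
Nupr1 (chr7:126625563-126625590, minus strand): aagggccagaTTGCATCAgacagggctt
Chac1 (chr2:119351039-119351066, plus strand): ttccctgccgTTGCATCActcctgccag
Asns (chr6:7693215-7693242, minus strand): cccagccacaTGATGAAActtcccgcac
Gars (chr6:55037961-55037988, plus strand): ggctgcgctaTTTCATCAtgcaccgggc
Vldlr (chr19:27216810-27216837, plus strand): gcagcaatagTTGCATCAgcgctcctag
These encode, besides Nupr1, a glutathione-degrading enzyme (Chac1, 1.07 ± 0.18), glycyl-tRNA synthetase (Gars, 0.65 ± 0.08), asparagine synthetase (Asns, 0.74 ± 0.09) and a lipoprotein receptor (Vldlr, 0.43 ± 0.12).

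NRF2 targets, enzymes of glutathione and quinone metabolism, were also higher with U0126, in 16 of 23 (69.6%, beside 12.4% of all genes). Of these 23, 0 were lower, and the median was 0.49. Here both inhibitors raised members above FGF2, 21 with U0126 and 9 with SB202190, beside 11.7% and 1.32% of all genes. With either, 0 were lower. Hmox1, heme oxygenase, climbed from 1409.7 and 1395.5 with FGF2 to 2546.9 and 2516.2 with SB202190 and 4264.4 and 4598.5 with U0126. Vehicle was lowest at 832.5 and 799.3, no groups overlapped, and the inhibitors differed by 0.83 ± 0.06 (adjusted p 5.31e-07). Nqo1, a quinone reductase, had 634.0 and 716.6 with U0126, 295.2 and 269.4 with SB202190 and 187.6 and 199.0 with FGF2, a difference of 1.23 ± 0.10 (adjusted p 2.00e-06). Gclm, a subunit of the enzyme that starts glutathione synthesis, gave 2599.6 and 2391.6 against 1319.4 and 1198.1, 1.00 ± 0.07 (adjusted p 7.72e-07). Gstm1, a glutathione transferase, was among the brightest genes at 7422.6 and 7015.3 against 4835.1 and 4868.8 and differed by 0.60 ± 0.04.

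The antioxidant response element, searched as TGACNNNGC, stood in 7 of 18 NRF2 promoters (38.9%, beside 14% of all genes), in 7 of the 12 called members and 0 of the 6 not called. These letters can overlap an AP-1 site where TGACTCA is followed by GC. Windows around the first match, chosen after their values were seen, show Gclm and Me1, an NADP-dependent enzyme, where Me1 holds that overlap.
Gclm (chr3:122245413-122245441, plus strand): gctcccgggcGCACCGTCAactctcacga
Me1 (chr9:86695902-86695930, minus strand): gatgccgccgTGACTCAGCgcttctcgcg
Targets of the aryl hydrocarbon receptor, a sensor of planar compounds, had 3 of 6 higher (50%, beside 12.4% of all genes) and 0 lower. Their median was 0.25, and the 3 were above FGF2 with both inhibitors. Cyp1b1, a cytochrome of the receptor's core response, had 2733.0 and 2653.4 with U0126, 1705.7 and 1524.2 with SB202190 and 996.3 and 1042.2 with FGF2, a difference of 0.77 ± 0.06 (adjusted p 2.58e-06). Tiparp gave 1067.2 and 1052.9 against 869.2 and 865.2, 0.29 ± 0.07, and the third is Nqo1. The letters GCGTG, a xenobiotic response element, stood in 3 of 4 promoters found, beside 35.2% of all genes.

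**Figure D4:**
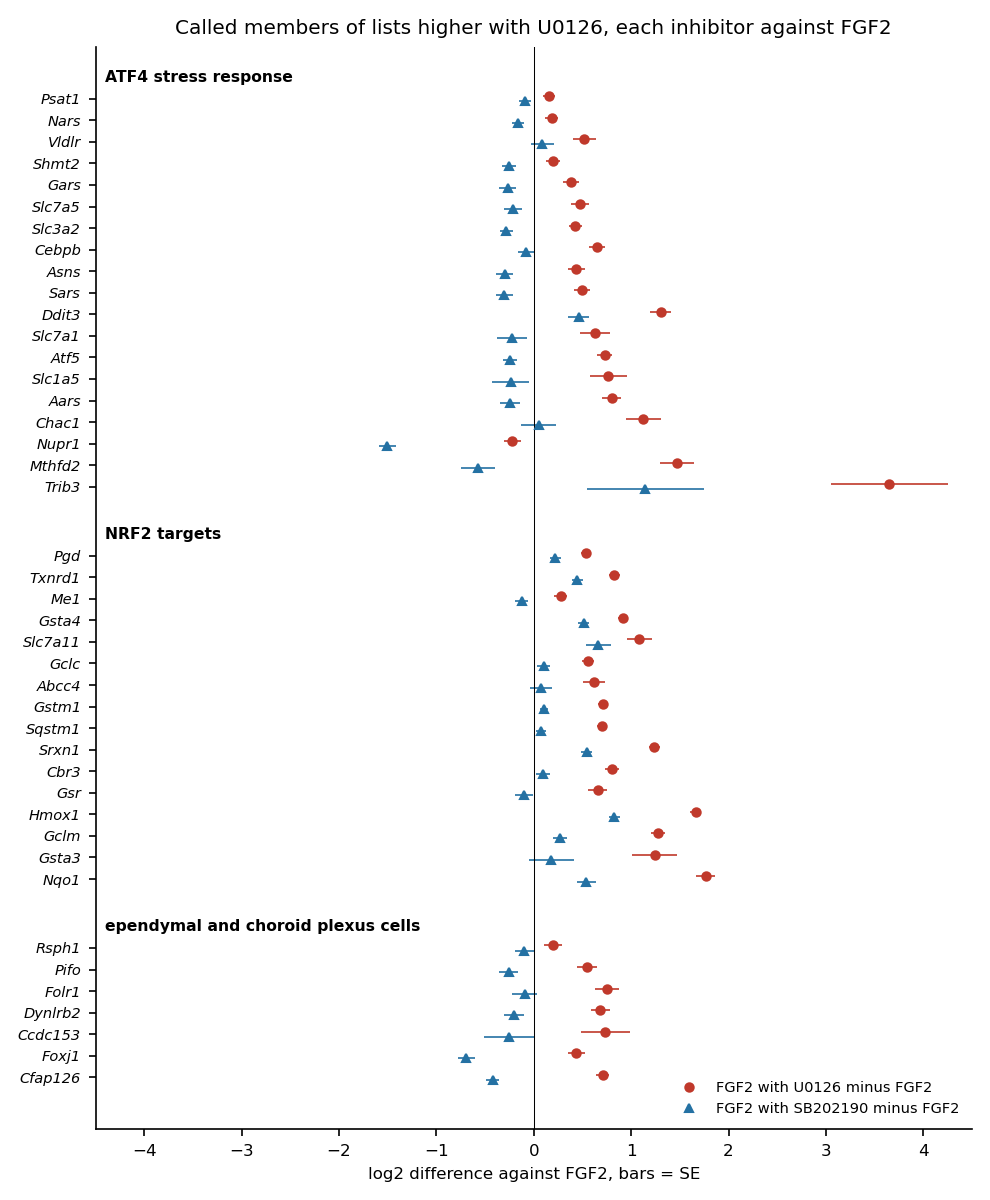
Log2 difference of each inhibitor group against FGF2 (x axis, bars are the SE) for the called members of the ATF4 list, the NRF2 list and the ependymal and choroid plexus markers, with red circles for U0126 and blue triangles for SB202190. For NRF2 targets most triangles lie at or right of 0, for ATF4 genes most lie left of it, and the circle of Nupr1 stands left of 0. The comparisons share the FGF2 arrays.

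Chaperones of the endoplasmic reticulum were lower with U0126 where called, with 7 of 20 lower (35%, beside 10.3% of all genes) and 0 higher. Their median was -0.17. Calr, a calcium-binding chaperone, had 1654.2 and 1639.9 with U0126 and 2755.7 and 2867.4 with SB202190, where FGF2 and vehicle gave 2472.7 and 2805.8 and 2516.8 and 2573.2. The U0126 arrays were the lowest of the 8, with a difference of -0.74 ± 0.06 (adjusted p 1.70e-06). Hsp90b1 showed the same order, 1643.2 and 1679.9 against 2615.2 and 2901.4 (-0.70 ± 0.06), and Hspa5, or BiP, gave 3937.9 and 3743.9 against 5266.8 and 5350.5 (-0.42 ± 0.06). Heat shock proteins split, with 6 of 14 lower and 4 higher (42.9% and 28.6%, beside 10.3% and 12.4% of all genes, median -0.17). Hspa1b, an inducible HSP70, differed by -0.97 ± 0.13 (134.0 and 118.1 against 216.1 and 284.0), and the small heat shock protein Hspb8 by 0.99 ± 0.06 (1493.2 and 1571.4 against 801.3 and 765.6). Of 20 p53 targets 5 were lower and 2 higher (25% and 10%, beside 10.3% and 12.4% of all genes, median 0.05). Among the lower were Trp53inp1 (-0.74 ± 0.07, 1337.4 and 1278.8 against 2095.8 and 2310.6), which lay on opposite sides of FGF2, and Sesn1 (-0.68 ± 0.08).

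Mature astrocyte genes were higher with U0126 in 17 of 31, 54.8%, and lower in 3, 9.7%, with a median of 0.22. Over all genes these shares were 12.4% and 10.3%. FGF2 had lowered 25 of the 31 and raised 4. Aqp4, the water channel of astrocyte endfeet, went from 5501.7 and 5179.1 with vehicle to 1591.5 and 1522.8 with FGF2, 2388.8 and 2351.0 with U0126 and 1254.8 and 1304.6 with SB202190. All 4 groups were apart, U0126 stayed under the level of vehicle, and the inhibitors differed by 0.91 ± 0.06 (adjusted p 2.90e-07). Gfap, the intermediate filament of astrocytes, had 2484.6 and 2579.2 against 1942.2 and 1778.2 around FGF2 at 2143.6 and 2255.6, a difference of 0.49 ± 0.06 (adjusted p 3.84e-05). Aldoc, a glycolytic enzyme of astrocytes, differed by 0.58 ± 0.06 (2680.8 and 2989.3 against 2000.0 and 1894.4) and Id4, an inhibitor of helix-loop-helix factors, by 0.41 ± 0.06 (1825.4 and 1729.6 against 1350.6 and 1347.6), where SB202190 gave -0.39 ± 0.06 against FGF2 and U0126 0.02 ± 0.06. Slc4a4, a bicarbonate transporter that FGF2 had raised, differed by -0.78 ± 0.09.

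Among 29 genes of reactive astrocytes 13 were lower and 7 higher (44.8% and 24.1%, beside 10.3% and 12.4% of all genes, median -0.26). Tm4sf1, a tetraspanin-like membrane protein, had 2870.2 and 2701.3 against 4660.7 and 4668.6 and 5392.9 and 6024.4 with FGF2, a difference of -0.70 ± 0.05 (adjusted p 1.34e-06). S1pr3, a receptor for sphingosine-1-phosphate, went the other way by 0.59 ± 0.05, with 2742.4 and 2718.6 against 1914.9 and 1823.8. Of 24 progenitor and radial glia genes 8 were lower and 4 higher (33.3% and 16.7%, median -0.23), the higher share being near that of all genes. Emx2, a homeobox factor of the cortex, had 106.1 and 101.6 with U0126 and 233.1 and 285.9 with SB202190, a difference of -1.29 ± 0.13 (adjusted p 1.45e-05). Sox4 gave 1775.3 and 1923.6 against 2876.4 and 3114.1 on opposite sides of FGF2 (2346.4 and 2443.9), -0.67 ± 0.06 (adjusted p 3.22e-06), and Tnc, the matrix protein tenascin-C, was lower at 971.2 and 761.0 against 1809.0 and 1697.7 (adjusted p 1.01e-05). Prom1, a membrane protein of progenitors and ependyma, was higher by 0.75 ± 0.09, with 420.0 and 424.3 against 249.1 and 243.6.

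Markers of ependymal and choroid plexus cells were higher in 7 of the 9 tested (77.8%, beside 12.4% of all genes) and lower in 0. Their median was 0.85, and FGF2 had lowered 8. Foxj1, the master factor of motile cilia, had 462.8 and 513.3 with U0126, 216.8 and 223.8 with SB202190, 380.3 and 337.3 with FGF2 and 789.4 and 801.7 with vehicle. The 4 groups did not overlap, and the difference was 1.13 ± 0.09 (adjusted p 1.57e-06). Cfap126, a protein of the cilium, gave 907.8 and 971.4 against 425.9 and 427.5, 1.13 ± 0.07 (adjusted p 2.15e-07), and the dynein subunit Dynlrb2 429.9 and 392.8 against 229.4 and 209.9, 0.89 ± 0.10. Beside these, the summed signal of the 11 markers on the array was 4790.9 and 5965.8 with U0126 and 3915.7 and 4631.4 with SB202190. Whether such cells were more numerous was not tested.

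Markers of other cell types were called in part, where 12.4% of all genes were higher and 10.3% lower. The called share was 25% for oligodendrocyte, 20% for microglia and 25% for endothelial markers, near the 22.7% of all genes. Neuronal markers were lower in 3 of 6 and higher in 0, with a median of -0.57: Tubb3 had 66.5 and 84.5 against 169.8 and 142.0 (-1.03 ± 0.17), Stmn2 1337.8 and 1365.0 against 1966.6 and 1970.0 (-0.52 ± 0.05) and Nefm 26.2 and 26.6 against 52.4 and 48.1. Their summed signal was 1921.1 and 1928.1 with U0126 and 2682.4 and 2685.9 with SB202190. Of 10 astrocyte markers 7 were higher and 1 lower (median 0.38). Oligodendrocyte markers had 1 of 4 lower, Cnp (-0.52 ± 0.06), and 0 higher. Aspa (0.97 ± 0.35) and Cldn11 (0.92 ± 0.69) of that list went the other way without a call. Microglia had 1 of 5 higher, Cd68 (0.65 ± 0.16), and fibroblasts and pericytes 3 of 10 higher and 1 lower. Medians of these 3 lists changed sign under other processing and are not given. Oligodendrocyte precursors had 2 of 5 lower (median -0.06), among them Pdgfra (-0.70 ± 0.16), and endothelial cells 1 of 4 lower (median -0.44). Calls of Cd68 and Pdgfra were lost without FGF2 with U0126 replicate 2 or FGF2 with SB202190 replicate 2, and that of Nefm without any of the 4 inhibitor arrays. The calls of Esam (endothelial), Olig1 (precursors) and Col1a1 and Col1a2 (fibroblasts) were lost without FGF2 with U0126 replicate 1, among other arrays. The part of these cells in the gene lists was not tested.

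Of 21 SRF and YAP targets 9 were higher and 4 lower (42.9% and 19%, beside 12.4% and 10.3% of all genes, median 0.24). Myl9, a myosin light chain, had 1654.3 and 1784.3 with U0126, at the level of vehicle (1719.9 and 1597.4), and 720.5 and 678.9 with SB202190, near FGF2 (781.7 and 840.0). It differed by 1.32 ± 0.07 (adjusted p 9.39e-08), Cnn1, calponin, by 1.11 ± 0.08 (869.9 and 909.5 against 440.2 and 375.9) and Acta2, smooth muscle actin, by 0.57 ± 0.05 (9344.4 and 9264.4 against 6877.8 and 6360.8). Among 29 genes listed as collagens and matrix proteins 6 were higher and 5 lower (20.7% and 17.2%, beside 12.4% and 10.3% of all genes). The list also holds Sgpp1, a phosphatase of sphingosine-1-phosphate and not a matrix protein, which is part of these counts. The median of -0.03 changed sign without FGF2 with U0126 replicate 2 or FGF2 with SB202190 replicate 1. Ncan, a proteoglycan of brain matrix, differed by -0.99 ± 0.15 (89.0 and 122.3 against 207.7 and 212.4), Lum by -0.69 ± 0.10, and Ogn, a small leucine-rich proteoglycan as Lum is, by 0.74 ± 0.08 (992.3 and 941.0 against 630.6 and 533.2). Of 18 matrix proteases and inhibitors 7 were higher and 4 lower (38.9% and 22.2%, beside 12.4% and 10.3% of all genes, median 0.18). The 4 lower are Serpinb2, Timp1, Plat and Mmp3 of the ERK list, and the 7 higher are not described here.

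**Figure D5:**
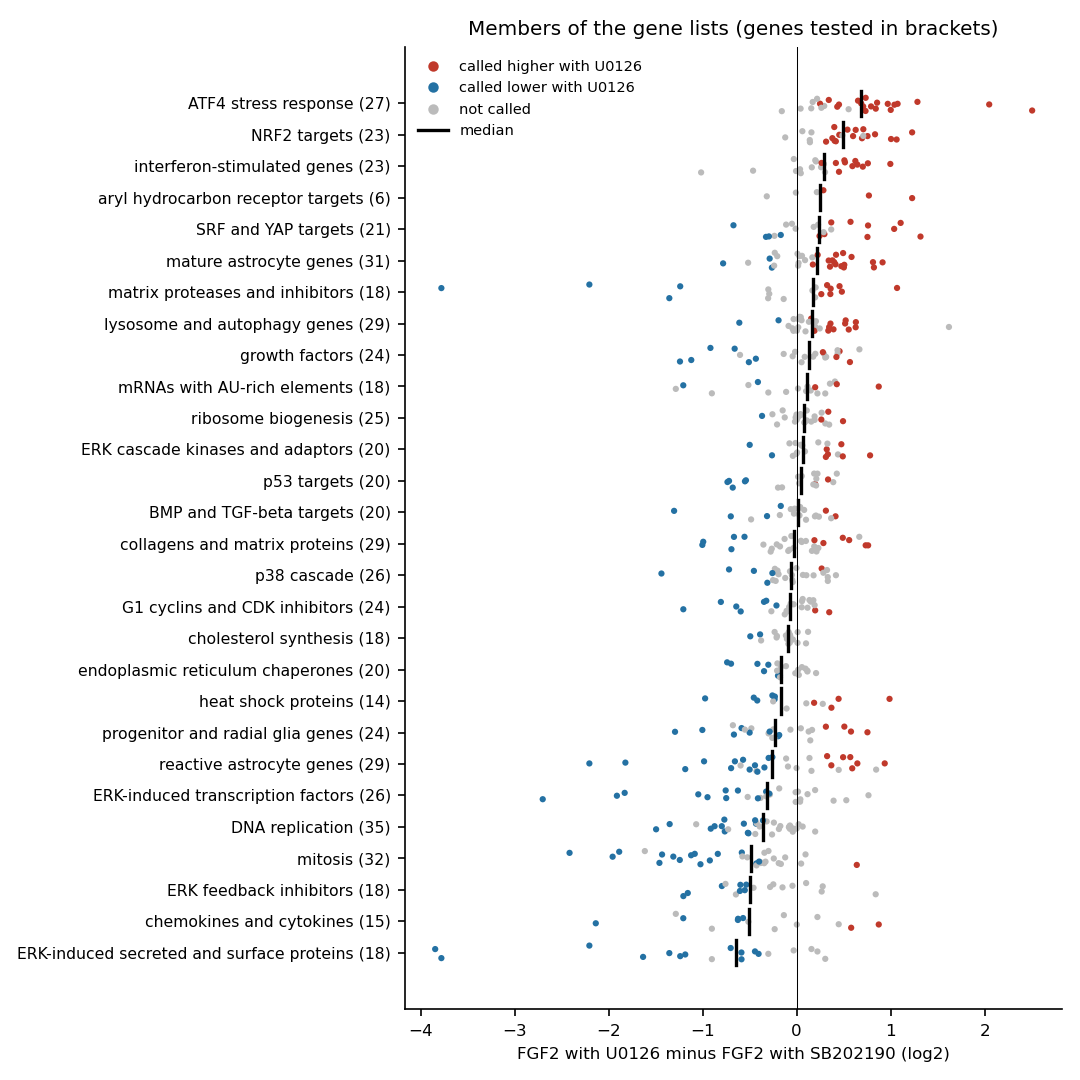
Log2 difference between the inhibitors (x axis) for every tested member of 28 gene lists of pathways, gene roles and astrocyte states (rows, ordered by median), with red points called higher, blue points called lower and grey points not called, and a black line at the median. The ATF4 list has the highest median, 0.69, and ERK-induced secreted and surface proteins the lowest, -0.64.

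Of 23 interferon-stimulated genes 11 were higher (47.8%, beside 12.4% of all genes) and 0 lower, with a median of 0.29, and FGF2 had lowered 17. Ifit3 had 1140.2 and 1496.4 with U0126 and 597.2 and 722.3 with SB202190 after a fall from 2256.3 and 2600.3 with vehicle to 799.1 and 763.8 with FGF2, a difference of 1.00 ± 0.12 (adjusted p 5.54e-05). H2-K1, a class I histocompatibility antigen, gave 2741.8 and 2646.7 against 2045.7 and 2009.3 (0.45 ± 0.05). Of 15 chemokines and cytokines 5 were lower and 2 higher (33.3% and 13.3%, beside 10.3% and 12.4% of all genes, median -0.51). Il33 was lowest, and Csf1, a growth factor of microglia, was higher by 0.58 ± 0.07 (1109.1 and 1111.2 against 766.4 and 718.2). Of 24 growth factors 6 were lower and 4 higher (25% and 16.7%, beside 10.3% and 12.4% of all genes, median 0.13). Kitl, the ligand of Kit, had 778.5 and 849.2 with U0126 and 1933.9 and 1935.6 with SB202190, a difference of -1.24 ± 0.10 (adjusted p 1.70e-06), and the mRNA of Fgf2 itself 57.5 and 41.5 against 119.2 and 101.1 (-1.12 ± 0.19, adjusted p 9.90e-04).

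Of 20 BMP and TGF-beta targets 4 were lower and 2 higher with U0126 (20% and 10%, beside 10.3% and 12.4% of all genes). Their median of 0.02 changed sign under 1 other scaling. Against FGF2, 9 were lower with U0126 and 8 with SB202190, beside 10.5% and 1.7% of all genes. Higher were 1 and 0, beside 11.7% and 1.32%. Tgfbi, a protein of the matrix named for its induction by TGF-beta, had 83.7 and 90.5 with U0126, 202.5 and 235.4 with SB202190 and 485.4 and 475.8 with FGF2, so that both inhibitors were below FGF2 and vehicle (472.7 and 412.8) and the difference between them was -1.30 ± 0.11 (adjusted p 3.58e-06). Of 18 genes of cholesterol synthesis 2 were lower, Idi1 (-0.49 ± 0.08) and Hsd17b7 (-0.39 ± 0.09), and 0 higher (median -0.09). The lower share of 11.1% was near the 10.3% of all genes. Lysosome and autophagy genes had 11 of 29 higher and 2 lower (37.9% and 6.9%, beside 12.4% and 10.3% of all genes). Among the higher were the acid glucosidase Gaa (0.52 ± 0.08, 1273.3 and 1221.8 against 885.1 and 854.0) and the hexosaminidase subunit Hexa (0.39 ± 0.07). Wipi1, which acts on autophagosome formation, differed by -0.61 ± 0.09.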

How the data were processed

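Deposited intensity values of 45101 probe sets on 8 arrays were used, on a linear scale, and each array's trimmed mean (2% at each end) was 150.001. The authors' algorithm and gene build are not given in the sources used here. Probe sets were named through the platform's annotation (34958 had 1 gene symbol). With limma 3.58.1 in R 4.3.3 and tables made in Python 3.11.15, the deposited intensities were turned to log2(value + 1.77), where 1.77 is their 10th percentile, and quantile normalized over the 8 arrays. Control probe sets were left out, the brightest probe set stood for a gene, and 13173 of 18193 genes above the 40th percentile (log2 3.83) were tested in 1 model of 4 groups, with 4 residual and 9.04 prior degrees of freedom and a variance trend. Tests were two-sided, Benjamini-Hochberg adjusted per comparison, and called at 0.05. The number of arrays, 2 a group, limits the precision. The procedure was tested on simulated data.

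The members and the 36 gene lists (721 genes, 674 on the array) were chosen with earlier results of these data known. Genes are named by rule, first the 15 called genes at each end of the ranking, with no overlap between the groups. To these come the members of each list with the smallest p (up to 4), called or not. All members of 4 lists are named too (ERK feedback inhibitors, ERK-induced transcription factors, p38 cascade, mRNAs with AU-rich elements). The text describes part of the named genes. Alternatives varied the normalization, pseudocount, filter, variance model, probe set rule, threshold, replicate block and each array left out. Promoters are RefSeq's, on GRCm38.p6. The match window of 1 further gene is not reported here.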

Additional observations from a re-analysis of the deposited data

Results flagged for a closer look

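For 18 named genes the inhibitors lay on opposite sides of FGF2, each with its own call against FGF2, as 76 of all 13173 genes did. The call between the inhibitors follows from those calls, so it is no separate support for these genes. They rest on the calls of SB202190 against FGF2, which fell from 398 to 0 without an intensity trend (1820 genes had an unadjusted p under 0.05 in limma) and to 83, 86 and 98 without FGF2 replicate 1, FGF2 replicate 2 and FGF2 with SB202190 replicate 2. The receptor S1pr3 (0.59), the amino acid exchanger subunit Slc3a2 (0.71), the astrocyte genes Gfap (0.49) and Aqp4 (0.91), the small heat shock protein Hspb8 (0.99), calponin Cnn1 (1.11), the cilium genes Foxj1 (1.13) and Cfap126 (1.13), the matricellular Ccn5 (2.55), C530044C16Rik (3.01) and Elobl (3.17) were above FGF2 with U0126 and below it with SB202190, where values are the log2 difference between the inhibitors. The reverse held for Egr3 (-2.70), Egr1 (-1.91), Plat (-1.35), Mmp3 (-1.24), Dusp6 (-0.79), Trp53inp1 (-0.74) and Sox4 (-0.67). Both calls against FGF2 use the same FGF2 arrays. The difference between the inhibitors is computed without them, but the genes listed here were chosen by those calls.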

How the results depend on the processing

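Of 154 called named genes 94 kept their call in every alternative that gave a value, 60 lost it in some and 33 lost it when an array was left out. Between the inhibitors 2989 genes were called. That count was 1729 (955 higher, 774 lower) without an intensity trend, 1784 (1024 and 760) with averaged probe sets, 1696 (923 and 773) at an adjusted p under 0.01, and 4513 (2296 lower) over all probe sets. Leaving out 1 array gave 1802 to 3011 called genes, 999 to 1641 higher and 803 to 1370 lower, lowest without FGF2 with SB202190 replicate 2. Centring on the kept genes, chosen after seeing the data, turned the split to 1356 higher and 1593 lower, and the median of all genes from 0.022 to -0.014.

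Against FGF2, U0126 gave 1619 called genes without the trend, 1781 with averaged probe sets, 1621 at 0.01, 4419 over all probe sets and 1786 to 2934 with 1 array left out. SB202190 gave 0 in limma without the trend (1820 at an unadjusted p under 0.05), 170 with averaged probe sets, 116 at 0.01, 235 with median centring and 83 to 396 with 1 array left out. FGF2 against vehicle gave 8241 over all probe sets. The median over genes raised by FGF2 was -0.07 with median centring, -0.14 with kept-gene centring and -0.13 to -0.10 with 1 array left out. The median over lowered genes was 0.28 with median centring, 0.20 without normalization, without a filter or with averaged probe sets, 0.21 without the trend, 0.19 with a robust prior, 0.17 with a pseudocount of 16 or a filter at the 60th percentile, 0.18 with kept-gene centring or without probe sets that can bind several transcripts, and 0.17 to 0.21 with 1 array left out.

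With averaged probe sets 8 genes changed sign, to -0.01 for Araf, -0.05 for Col1a2, 0.16 for Cx3cl1, -0.01 for Cxcl1, -0.02 for Rrs1, 0.18 for Spred2, 0.33 for Top2a and -0.21 for Wdr12. Without probe sets that can bind several transcripts Cxcl1 gave -0.66 and Top2a 0.43. Replicate numbers did not pair the arrays (r of deviations -0.026 to 0.034), and with a replicate block 2993 genes were called (1646 higher, 1347 lower) and 0 of the 154 calls were lost.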
